A study of Mus musculus with 6 samples.

Results

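The genes described here are Cdh2, which encodes N-cadherin, and 9 partners that join cardiomyocytes to each other at the intercalated disc and the desmosome: Dsp, Pkp2, Jup, Dsg2, Dsc2, Ctnna1, Ctnna3, Tjp1 and Xirp1. They were taken by gene name from a list drawn up with earlier results of these data known, and all 10 were found among the 46983 genes in the tables. No gene of the 10 differed between mutant and wild type hearts at an adjusted p under 0.05. The largest log2 fold change was that of Ctnna3, the αT-catenin gene (0.39, adjusted p = 0.733, quasi-likelihood test of edgeR). Its level, in counts scaled to the library size (CPM), was 25.1 ± 1.68 in mutant hearts and 19.04 ± 2.84 in wild type hearts. These are means and SD, with n = 3 each. Only Ctnna3 had an unadjusted p below 0.05 by that test, and this 1 of 10 stands beside 5.73% of all genes. The groups did not overlap in 2 of 10 genes, Ctnna3 and Pkp2 (adjusted p = 0.957 for Pkp2 from edgeR). Both were higher in the mutant, and 6.61% of all genes did not overlap in that direction. The genes other than Ctnna3 had higher means in the mutant too, but for most of them this rested on 1 wild type heart with low values.

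Heart muscle cells hold together through 2 kinds of anchoring junction that meet at the ends of the cell. In the adherens junction, N-cadherin molecules of neighbouring cells bind each other outside the membrane, and catenins tie their tails to actin. In the desmosome, the cadherins desmoglein-2 and desmocollin-2 bind plakoglobin and plakophilin-2, which pass the load through desmoplakin to desmin filaments. In the embryonic heart these junctions still lie along much of the cell border, and they gather into a mature disc mainly after birth. Inherited variants in the desmosomal genes are a known cause of arrhythmogenic cardiomyopathy.

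RNA was measured in whole hearts at E13.5, with 1 heart per library, in 3 mutant embryos (replicates 1, 5 and 10) and 3 control embryos (replicates 2, 3 and 5) of a C57BL/6 x DBA/2 background. According to the methods of the study, both groups carried floxed alleles of Wt1, the gene of the Wilms' tumour transcription factor, and only the mutants carried Cre under the Tnnt2 (cardiac troponin T) promoter, so the hearts labelled wild type were floxed embryos without Cre. That promoter is active in the cardiomyocyte lineage from early on, and the methods also describe recombination in part of the epicardium. The labels do not say which hearts shared a litter. Because whole hearts were used, fewer cells of a type and less RNA per cell cannot be told apart. One question of the study was how the myocardial loss of Wt1 altered genes of heart muscle, and the comparison below asks it of the cell junctions.

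Libraries held between 44244665 and 56373393 counts, of which wild type replicate 5 had the fewest. Wt1 itself had a log2 fold change of −0.10 (standard error (SE) 0.31, adjusted p = 0.990), and these gene-level counts cannot tell deleted from intact alleles. As a marker of the labelled tissue, Tnnt2 lay between 3875 and 4483 CPM in every heart. In wild type replicate 5, genes with long transcripts were low and genes with short ones high. Spearman's rho between gene length and a gene's deviation from its mean was −0.556 there and between −0.0622 and 0.464 in the other hearts, across 11795 genes that are not independent replicates. Fold changes of the genes described are given with and without it where it matters.

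Levels were compared between genes per length of transcript, as FPKM in the deposited table (counts divided by gene length and library size). Ctnna1, the αE-catenin gene, came first with a mean of 103.9 ± 14.2 FPKM (SD, n = 6 hearts). It was followed by Jup, the plakoglobin gene, at 87.3 ± 15.4 FPKM and Cdh2 at 84.4 ± 13.0 FPKM. Pkp2 had 73.0 ± 4.61 FPKM and Dsp 67.2 ± 18.9 FPKM. The tight junction scaffold gene Tjp1 had 41.2 ± 9.31 FPKM, and Xirp1, which encodes an actin-binding Xin repeat protein, had 27.6 ± 5.11 FPKM. The desmosomal cadherin genes were lower, at 19.5 ± 3.82 FPKM for Dsg2 and 15.2 ± 2.41 FPKM for Dsc2, and Ctnna3 was the lowest at 8.42 ± 1.39 FPKM, 12.3-fold below Ctnna1. Ctnna1 was above Jup, Dsp above Tjp1, and every later gene above the next in 6 of 6 hearts. The neighbours Jup and Cdh2 (4 of 6 hearts), Cdh2 and Pkp2 (5 of 6), and Pkp2 and Dsp (3 of 6) did not separate beyond the spread between hearts. The place of Jup depended on the length assumed, since the deposited values imply 1366 bases against 6436 bases for the union of its exons in GENCODE M21. With the M21 lengths Jup moved from rank 2 to rank 6, Dsp to rank 3 and Xirp1 to rank 5, and Dsc2 passed Dsg2. The gap between Ctnna1 and Ctnna3 was then 19.6-fold.

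**Figure D1:**
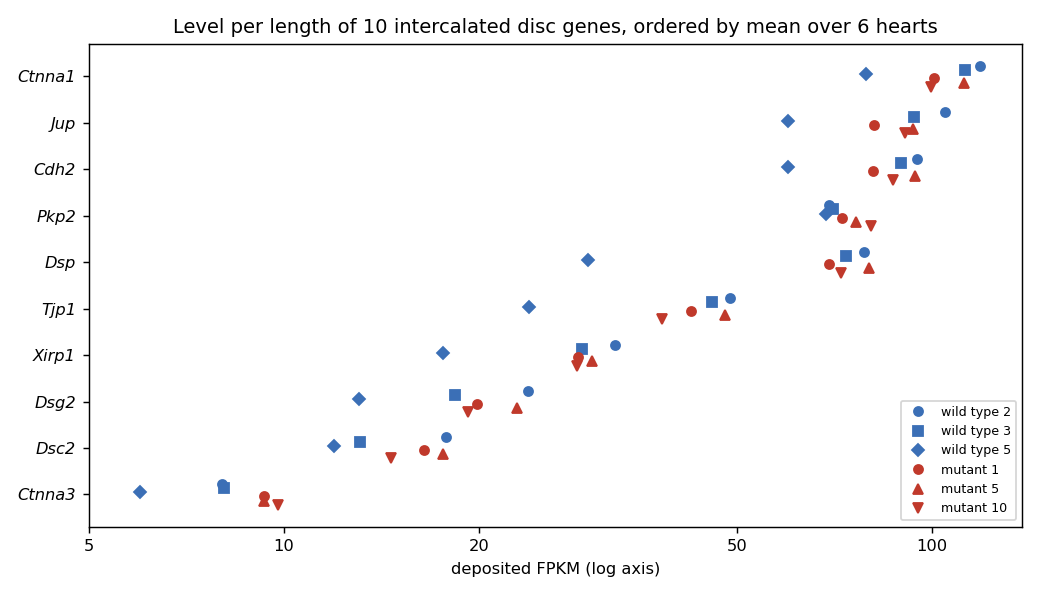
Deposited FPKM of each gene (log axis) in the 6 hearts, with genes ordered from top to bottom by their mean, blue for wild type and red for mutant. Ctnna1 leads at a mean of 103.9 FPKM and Ctnna3 is last at 8.42 FPKM, and the blue diamonds of wild type replicate 5 are the leftmost points, far from the rest in Dsp and Tjp1 and close to wild type replicates 2 and 3 in Pkp2.

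Cdh2 (ENSMUSG00000024304) lies on the minus strand of chromosome 18 from 16588877 to 16809246 (GRCm38, GENCODE M21). Its level was 373, 350.3 and 240.5 CPM in wild type replicates 2, 3 and 5 and 318, 374 and 367 CPM in mutant replicates 1, 5 and 10. Wild type replicate 5 was the lowest heart, and the 2 other wild type hearts lay inside the range of the mutants. Mutant over wild type, the log2 fold change was 0.14 (SE 0.17, adjusted p = 0.985 from edgeR), and its 95% interval ran from 0.83-fold to 1.45-fold. Without wild type replicate 5 it was −0.035 (SE 0.098). A difference in N-cadherin transcript within this interval was not detectable with these hearts.

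The α-catenins bind the cadherin complex to actin, and the heart uses 2 of them. Ctnna1 (chromosome 18, 35118859 to 35254779, plus strand) had 433, 408 and 294 CPM in the wild type hearts and 366, 413 and 389 CPM in the mutants. The mutant values lay inside the wild type range, and the log2 fold change was 0.041 (SE 0.16, adjusted p = 0.990 from edgeR) with all hearts and −0.11 without wild type replicate 5. Genes on the opposite strand share 1.48% of the M21 exon bases of Ctnna1 (Lrrtm2), 5.17% of those of Dsp (Gm10129) and 3.99% of those of Dsg2 (Gm16090). The strand setting of the counting is not given in the sources used here, so reads on these bases are uncertain.

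Ctnna3 (ENSMUSG00000060843) spans 1574 kb of chromosome 10, from 63430098 to 65003667 on the plus strand. Its product, αT-catenin, also binds plakophilin-2 and so touches both kinds of junction. It had 20.7, 20.7 and 15.8 CPM in wild type replicates 2, 3 and 5, and 24.0, 24.2 and 27.0 CPM in mutant replicates 1, 5 and 10. All 3 mutant hearts were above all 3 wild type hearts, and the log2 fold change was 0.39 (SE 0.13, adjusted p = 0.733 from edgeR), a 95% interval of 1.06-fold to 1.63-fold. Without wild type replicate 5 it was 0.28 (SE 0.096, adjusted p = 0.308 from edgeR). The unadjusted p was under 0.05 in 18 of 19 other settings but not without mutant replicate 10, while the adjusted p ranged from 0.251 to 0.9999 over these settings.

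Since the deleted gene encodes a DNA-binding factor, the bases before the transcription start were searched for 3 motifs, on both strands, in the RefSeq promoter windows (GRCm38.p6). The table held windows for 4 of the 10 genes, with 3 start sites for Ctnna3. GTGGGAG, a core motif that WT1 is known to bind, was present in the 250 bases before the start in 2710 of 32851 windows (8.249%). GCGGGGGCG, the GC-rich site shared with EGR1, was present in 845 (2.572%), and AGATAA, a motif bound by cardiac zinc finger factors of another family, in 3281 (9.988%). The windows shown are the 3 with a match, read 5′ to 3′ on the strand of the gene, and capitals mark the matched bases.
Ctnna3, first start, chr10:63429848-63430097, plus strand: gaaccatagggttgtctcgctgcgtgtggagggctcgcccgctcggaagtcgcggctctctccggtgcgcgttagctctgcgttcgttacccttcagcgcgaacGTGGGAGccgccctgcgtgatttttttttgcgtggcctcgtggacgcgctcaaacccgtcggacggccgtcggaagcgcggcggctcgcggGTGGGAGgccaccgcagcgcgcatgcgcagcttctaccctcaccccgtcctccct
Jup, chr11:100397791-100398040, minus strand: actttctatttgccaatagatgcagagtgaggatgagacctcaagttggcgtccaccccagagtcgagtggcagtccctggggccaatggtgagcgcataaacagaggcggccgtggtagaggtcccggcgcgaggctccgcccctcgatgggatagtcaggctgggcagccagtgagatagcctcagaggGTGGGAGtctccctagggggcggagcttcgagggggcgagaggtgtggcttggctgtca
Tjp1, chr7:65371245-65371494, minus strand: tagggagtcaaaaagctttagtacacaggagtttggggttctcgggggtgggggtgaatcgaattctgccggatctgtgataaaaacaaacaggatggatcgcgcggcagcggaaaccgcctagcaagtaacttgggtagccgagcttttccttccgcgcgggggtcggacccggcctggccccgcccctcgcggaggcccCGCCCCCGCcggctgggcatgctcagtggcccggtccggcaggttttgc
The first Ctnna3 window held GTGGGAG at 146 and at 55 bases before the start, and that of Jup held it at 59 bases. In Tjp1 the capitals are the reverse complement of GCGGGGGCG, at 49 bases. The start behind this Tjp1 window lies inside the M21 gene, which runs from 65296165 to 65527781 on the minus strand. The bases before the outer 5′ end of Tjp1 were not searched. The window of Dsp and the 2 further windows of Ctnna3 held neither, and AGATAA was in no window of these genes. The windows shown for Ctnna3, Jup and Tjp1 held 67.6%, 62% and 63.2% G and C, against a median of 52.4% over all windows. The shares over all windows were not matched for this, so no enrichment is read from them. These matches describe letters only, and no binding was measured in these hearts.

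Plakoglobin belongs to both junctions. Its gene Jup (chromosome 11, 100368958 to 100397763, minus strand) had 141, 125 and 82.3 CPM in the wild type hearts and 109, 127 and 131 CPM in the mutants. The groups overlapped, with wild type replicate 5 the lowest and wild type replicate 2 the highest. Its log2 fold change was 0.075 (SE 0.19, adjusted p = 0.990 from edgeR) and −0.12 without wild type replicate 5.

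Dsp, the gene of desmoplakin, lies on chromosome 13 from 38151294 to 38198577 on the plus strand. It had 459.8, 429 and 176 CPM in wild type replicates 2, 3 and 5 and 405, 474 and 454 CPM in mutant replicates 1, 5 and 10. A single wild type heart stood at 39.6% of the mean of the other 5, and the other wild type hearts lay within the mutant range. For Dsp the log2 fold change was 0.32 (SE 0.31, adjusted p = 0.985 from edgeR), the second highest of the 10 genes, and −0.0013 without that heart. Its 95% interval with all hearts, 0.76-fold to 2.06-fold, was the widest of the 10.

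Pkp2, the plakophilin-2 gene (chromosome 16, 16213318 to 16272712, plus strand), showed another pattern. It had 177.7, 179.3 and 179.9 CPM in the wild type hearts, and 186, 198 and 221 CPM in the mutants. The mutant hearts were all above the wild type hearts, and wild type replicate 5 was the highest of its group by a small margin. In FPKM it was the lowest of its group, at 68.7 against 69.3 and 70.3 in wild type replicates 2 and 3. The log2 fold change of Pkp2 was 0.17 (SE 0.10, adjusted p = 0.957 from edgeR) and 0.18 without wild type replicate 5. It was the only gene of the 10 whose value moved by less than 0.01 on leaving this heart out.

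The desmosomal cadherins bind across the gap between cells. Dsg2 (chromosome 18, 20558074 to 20604521, plus strand) had 80.6, 61.8 and 45.1 CPM in the wild type hearts and 67.0, 78.4 and 69.9 CPM in the mutants. Dsc2 (chromosome 18, 20030633 to 20059554, minus strand) had 67.2, 49.3 and 46.0 CPM in the wild type hearts and 61.9, 67.1 and 59.1 CPM in the mutants. In both genes wild type replicate 2 was the highest heart and wild type replicate 5 the lowest, so the mutants lay inside the wild type range. The log2 fold changes were 0.20 for Dsg2 (SE 0.19, adjusted p = 0.985 from edgeR) and 0.21 for Dsc2 (SE 0.15, adjusted p = 0.979 from edgeR). Without wild type replicate 5 they were 0.011 and 0.11.

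Tjp1 encodes ZO-1, which organises the border of gap junctions at the disc, and lies on chromosome 7 from 65296165 to 65527781 on the minus strand. It had 146, 136 and 72.6 CPM in the wild type hearts and 126, 144 and 122 CPM in the mutants. Its log2 fold change was 0.15 (SE 0.24, adjusted p = 0.985 from edgeR) and −0.10 without wild type replicate 5. Xirp1 (chromosome 9, 120013755 to 120023598, minus strand) had 187, 165 and 103 CPM in the wild type hearts and 163, 174 and 175 CPM in the mutants. The log2 fold change of Xirp1 was 0.17 (SE 0.20, adjusted p = 0.985 from edgeR) and −0.043 without that heart. In both genes the mutants lay inside the wild type range.

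**Figure D2:**
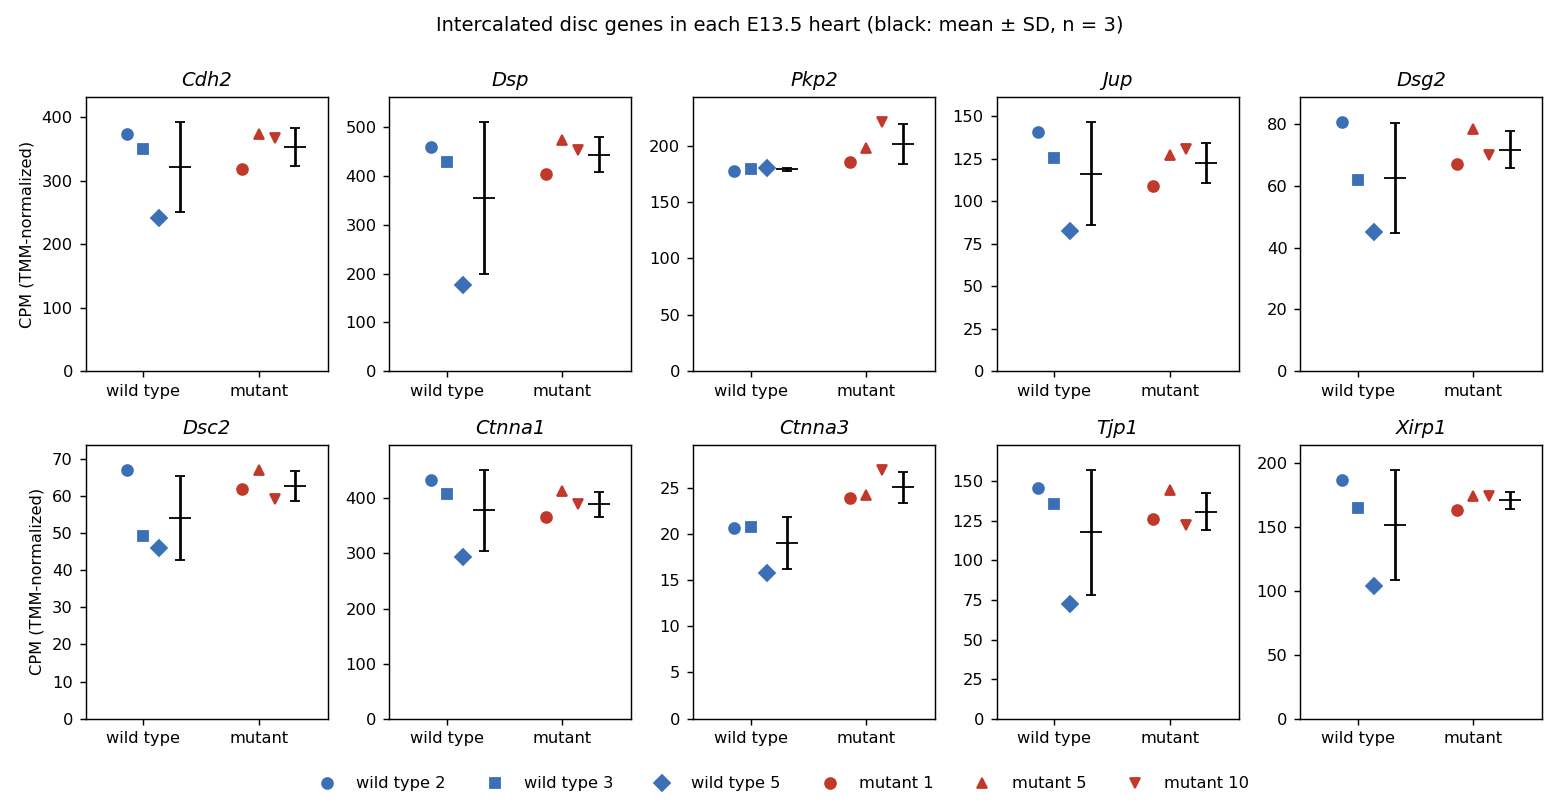
TMM-normalized CPM (vertical axes from 0) of the 10 genes in each of 3 wild type (blue) and 3 mutant (red) hearts, with the mean and SD of each group in black. The groups do not overlap in Pkp2 and Ctnna3, and wild type replicate 5 (diamonds) is the lowest heart in the other panels and in Ctnna3.

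Over the 10 genes, the count past the adjusted threshold was 0 in edgeR, DESeq2 and all other settings run, beside 0% of the 17473 genes tested in edgeR and 0.66% of those given an adjusted p by DESeq2. At an unadjusted p under 0.05 the count was 1 of 10 (Ctnna3), beside 5.73% of all genes, in edgeR. It was again 1 of 10 without wild type replicate 5, beside 12.2% of all genes. The groups did not overlap in 2 of 10 genes, Pkp2 and Ctnna3, both with the mutant higher, beside 6.61% of all genes in that direction. All 10 log2 fold changes were above 0 with all hearts, 8 of 10 when libraries were scaled to cardiomyocyte markers, and 4 of 10 without wild type replicate 5. Above 0 were also 49.8% of all genes with all hearts, 29.3% under that scaling and 50.7% without that heart. Under that scaling the median log2 fold change over all genes was −0.099. The median log2 fold change of the 10 genes was 0.17 with all hearts and −0.018 without wild type replicate 5, beside a median of −0.001 over all genes with all hearts.

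**Figure D3:**
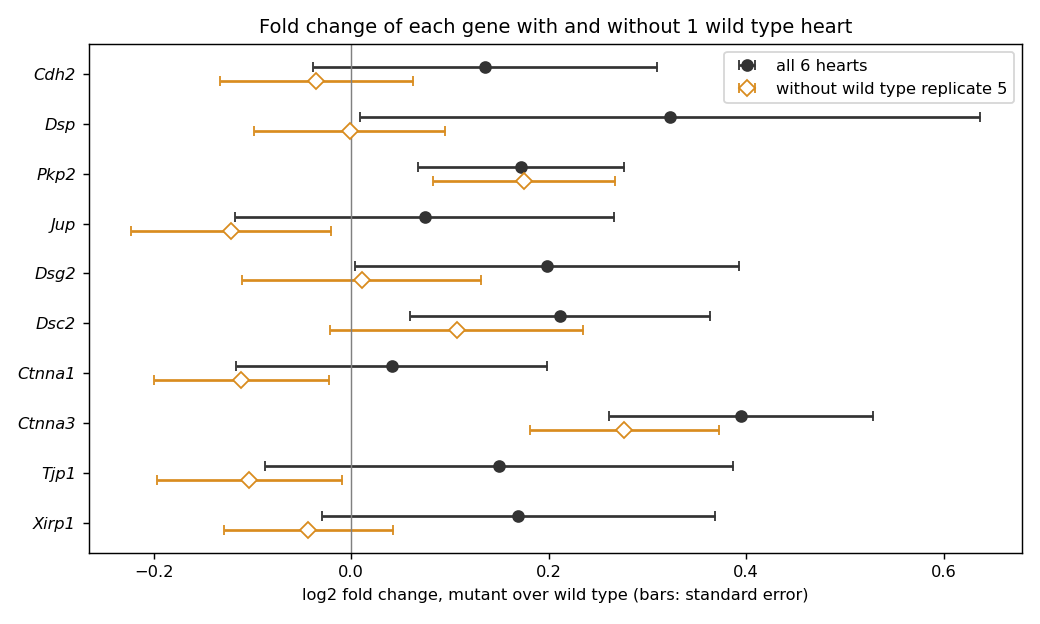
Log2 fold change of mutant over wild type (horizontal axis, with standard errors as bars) of each gene with all 6 hearts (filled circles) and without wild type replicate 5 (open diamonds). Values of 10 genes lie above 0 with all hearts and of 4 genes without that heart, where Ctnna3 (0.28) and Pkp2 (0.18) are the highest.

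Wild type replicate 5 was the lowest heart in 9 of 10 genes, beside 31.1% of all genes. Relative to the mean of the other 5 hearts it stood at 39.6% in Dsp, 53.9% in Tjp1 and 59.9% in Xirp1. It stood at 63.1% in Dsg2, 64.9% in Jup, 67.5% in Cdh2, 67.7% in Ctnna3, 73.2% in Ctnna1 and 75.5% in Dsc2. Only Pkp2 came close, at 93.5%. The 10 genes have a median length of 3567 bases in the FPKM values, against 1913 bases over all genes tested. Genes of their own length were also low in that heart, with a median deviation of −0.35 (log2) in the longest of 10 length classes, but Dsp deviated by −1.11 and Xirp1 by −0.61. Jup, the shortest at 1366 bases in the FPKM values, deviated by −0.52 where genes of that length had a median of 0.066. Its M21 exons come to 6436 bases, so its length class and its length-corrected value depend on the length assumed. Its deviation was also below the median of −0.35 in the longest class. In all, 9 of 10 genes were below the median of their length class, with Pkp2 the exception (−0.077 against −0.11). After a correction of each heart for its trend with length, 9 of 10 log2 fold changes were above 0 with a median of 0.13, and that of Ctnna1 was −0.011.

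**Figure D4:**
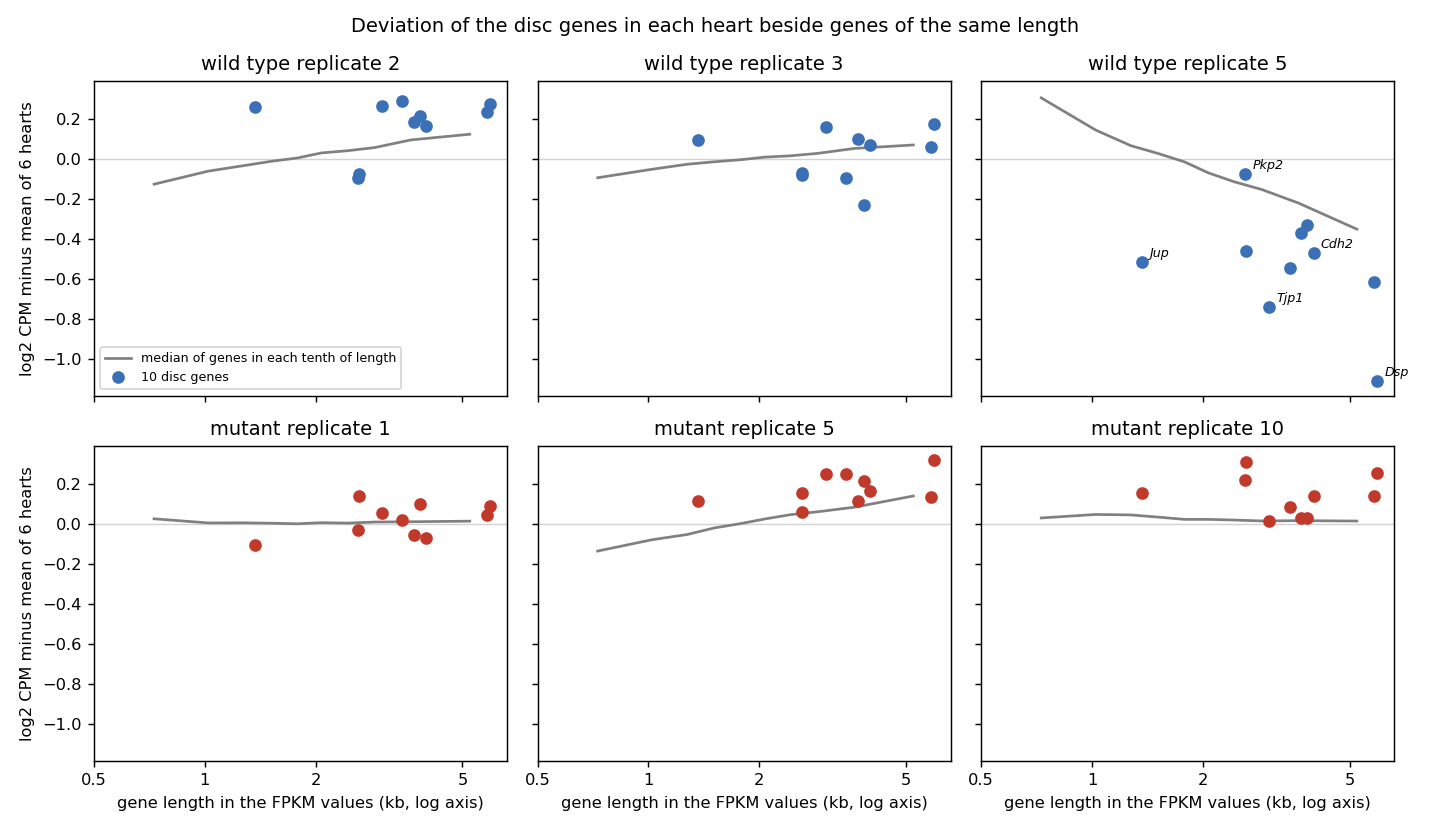
Deviation of log2 CPM from the mean of the 6 hearts (vertical axis) against gene length (kb, log axis) in each heart, with the 10 disc genes as points and the median of all genes in each of 10 length classes as a grey line. In wild type replicate 5 the line falls from 0.30 to −0.35 and 9 of the 10 genes lie below it, down to −1.11 for Dsp.

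Summed markers of the cell types of the heart were set beside these values, and their part in the results was not tested. The 15 cardiomyocyte markers summed to 32899.9 to 36144 CPM in the controls and to 35571 to 39838 CPM in the mutants. The 12 epicardial markers summed to 324–599.7 CPM and 381–671 CPM, and were lowest in wild type replicate 5. The 8 endothelial markers reached 840.1–1258 CPM and 1105–1397 CPM, the 8 mesenchymal ones 2053–3121 CPM and 3107–4324 CPM, and the 7 neural ones 24.0–28.3 CPM and 20.3–27.0 CPM. A sum does not speak for each marker. Of the mesenchymal markers, 4 had a log2 fold change above 0 and 4 below (median −0.074, edgeR with all hearts). Of the epicardial ones, 8 were above 0 and 4 below. The 7 erythroid markers were highest in wild type replicate 5 (37017 CPM) and mutant replicate 10 (38985 CPM), against at most 14445 CPM in the other hearts. The sum of the 7 macrophage markers did not overlap between the groups, at 107.5–163 CPM and 191.5–201 CPM. Of these markers, 6 had a log2 fold change above 0 and 1 below, and not all of them separated the groups singly. Relative to the cardiomyocyte sum, the groups did not overlap in 1 gene of the 10, Ctnna3. Its log2 ratio was higher by 0.31 in the mutant (exact permutation test, two-sided, p = 0.1, the smallest that 3 hearts against 3 allow). Without wild type replicate 5 it was higher by 0.21. The share of all genes that do not overlap in this ratio was not computed, so nothing is read from this count.

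The ratio of the α-catenins was examined after their values had been seen. Ctnna3 amounted to 6.75%, 7.18% and 7.58% of Ctnna1 on the FPKM scale in wild type replicates 2, 3 and 5, and to 9.25%, 8.31% and 9.81% in mutant replicates 1, 5 and 10. The means were 7.17 ± 0.418% and 9.13 ± 0.760% (SD, n = 3 each), and the groups did not overlap, so that the exact permutation test (two-sided) gave its smallest p of 0.1. With M21 lengths the percentages would all be lower by the same factor. In this ratio wild type replicate 5 was the highest wild type heart, not the lowest. Of the 45 pairs of the 10 genes, the ratios of 8 did not overlap between the groups, 2 of the 9 pairs with Ctnna3 (Ctnna3 higher in the mutant) and 6 of the 36 others. The share over other pairs of genes was not computed, so nothing is read from this count.

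The genes most like Cdh2 over the 6 hearts were sought by the root mean square difference of their centred log2 CPM. The 5 nearest were Arhgap35 (0.0280), Map3k5 (0.0288), Anln (0.0303), Ski (0.0313) and Rab27a (0.0316). All 5 had their lowest value in wild type replicate 5, as Cdh2 did, which follows from choosing them by this likeness. Among the 9 partners the nearest to Cdh2 were Jup at rank 69 (0.0523), Ctnna1 at rank 169 (0.0651) and Xirp1 at rank 416 (0.0811). The farthest were Pkp2 at rank 4838 and Dsp at rank 7999. The likeness is a description over 6 hearts that share the low values of 1 of them.

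A wider set of disc genes was taken from lists of 4 kinds. Of 60 further genes tested, 5 had an unadjusted p under 0.05 in edgeR, all higher in the mutant (beside 3.14% of all genes in that direction), and none had an adjusted p under 0.05 there. Gja1, which encodes connexin 43, the main gap junction protein of the working myocardium, had 425, 439 and 365 CPM in wild type replicates 2, 3 and 5 and 585, 709 and 669.9 CPM in mutant replicates 1, 5 and 10. Every mutant heart was above every wild type heart, and the log2 fold change was 0.68 (SE 0.13, adjusted p = 0.273 from edgeR), and 0.60 without wild type replicate 5. DESeq2 gave it an adjusted p of 0.000679, within a range from 1.64e-06 to 0.9999 over 19 settings, and the unadjusted p was under 0.05 in all 19. Of the 12 gap junction, channel and receptor genes, 9 were above 0 and 3 below, with a median of 0.17, and Gja1 was the only one with an unadjusted p under 0.05.

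Among the 26 of 27 scaffold and linker genes tested, all 26 had a log2 fold change above 0 with all hearts (median 0.13), 17 when scaled to cardiomyocyte markers (65.4%, beside 29.3% of all genes), and 12 without wild type replicate 5 (median −0.001). In 24 of these 26 genes wild type replicate 5 was the lowest heart. Nrap, which anchors the ends of myofibrils at the disc, was the one with an unadjusted p under 0.05. It had 79.6, 84.9 and 67.6 CPM in the wild type hearts and 95.7, 124 and 117 CPM in the mutants, without overlap. The log2 fold change of Nrap was 0.54 (SE 0.14, adjusted p = 0.488 from edgeR) and 0.45 without wild type replicate 5, and the unadjusted p was under 0.05 in 19 of 19 other settings. Its adjusted p ranged from 0.0196, in DESeq2 without that heart, to 0.9999. Ilk was left out by the filter with 0 to 5 counts, which does not show that it was silent. How reads shared between overlapping genes were counted is not given in the sources used here. The cause of the low counts of Ilk was not tested.

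Of 16 adherens junction genes, 10 were above 0 and 6 below with all hearts (median 0.034), 4 above 0 when scaled to cardiomyocyte markers (25%, beside 29.3% of all genes), and 5 without wild type replicate 5. Ctnnal1, an α-catenin-like gene, had 31.2, 26.1 and 29.6 CPM in the wild type hearts and 33.9, 35.7 and 34.1 CPM in the mutants, with a log2 fold change of 0.26 (SE 0.10, adjusted p = 0.843 from edgeR). Its unadjusted p was under 0.05 in 10 of 19 other settings. The partner of N-cadherin that also carries Wnt signals, β-catenin (Ctnnb1), was named after its values were seen, at 955, 945 and 749 CPM in the wild type hearts and 822, 967 and 923 CPM in the mutants (log2 fold change 0.034, SE 0.14, and −0.072 without wild type replicate 5).

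The other desmosome genes belong mostly to skin and other epithelia, and 6 of 12 passed the filter on low counts. Dsg1b, Dsg3 and Dsc1 had 0 counts in every heart. All 6 tested had a log2 fold change above 0 with all hearts, 5 when scaled to cardiomyocyte markers (beside 29.3% of all genes), and 5 without wild type replicate 5. Perp, a tetraspan membrane protein gene of the desmosome and the most abundant of this list, was named after its values were seen. It had 90.9, 95.8 and 139 CPM in the wild type hearts and 117, 121 and 128 CPM in the mutants, so that wild type replicate 5 was the highest heart. Its log2 fold change was 0.17 (SE 0.16, adjusted p = 0.985 in edgeR) with all hearts and 0.39 (SE 0.078, adjusted p = 0.120 in edgeR) without that heart. The adjusted p of Perp ranged from 0.00145, in DESeq2 without that heart, to 0.9999 over 19 settings. Pkp3, an epithelial plakophilin, had 2, 11 and 12 counts in the wild type hearts and 33, 50 and 20 counts in the mutants (log2 fold change 2.01, SE 0.65, adjusted p = 0.696 from edgeR). Ppl, the periplakin gene, had 5.90, 4.49 and 2.07 CPM in the wild type hearts and 4.69, 8.74 and 11.96 CPM in the mutants (log2 fold change 1.02, SE 0.42, adjusted p = 0.847 from edgeR). Without wild type replicate 5 the log2 fold change of Ppl was 0.71 and its unadjusted p was above 0.05. The 12 markers of other epithelia, which include Epcam and Cdh1, summed to 3.41, 7.29 and 26.0 CPM in the wild type hearts and 10.7, 36.9 and 18.9 CPM in the mutants. The highest of these sums was in mutant replicate 5, which also had the most counts of Pkp3. Wild type replicate 5 came next at 26.0 CPM but had 12 counts of Pkp3, fewer than any mutant heart. The epicardial sum was highest in mutant replicate 10, which also had the highest level of Ppl. The part of these cells in both values was not tested.

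**Figure D5:**
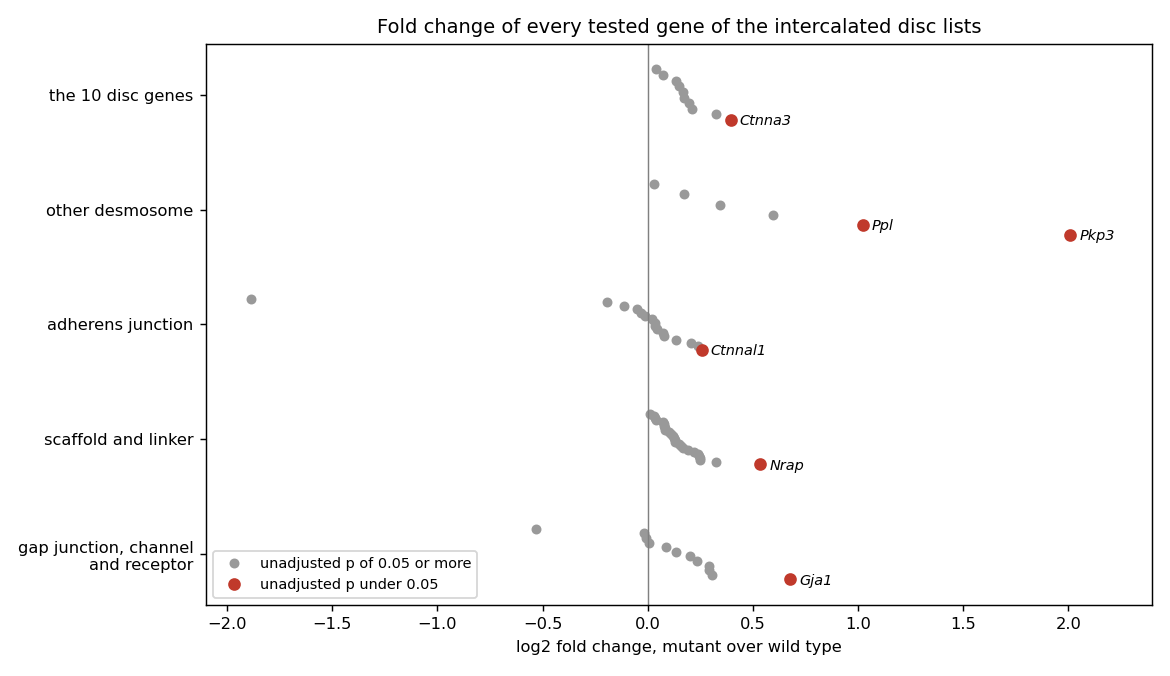
Log2 fold change of mutant over wild type (horizontal axis) of every tested gene, in rows for the 10 disc genes and the 4 further lists, with genes at an unadjusted p under 0.05 in red. Gja1 (0.68), Nrap (0.54), Ctnna3 (0.39), Ctnnal1 (0.26), Pkp3 (2.01) and Ppl (1.02) are the red points, all above 0.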

How the data were processed

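According to the methods of the study, reads were trimmed, mapped to mouse GRCm38 with STAR and counted per gene with featureCounts where they mapped uniquely, while the processing notes name HTSeq and DESeq2. The authors deposited raw counts per gene and heart, and FPKM values, in which each count is divided by a length that is the same in all hearts and by the library total. Counts were compared with edgeR 4.0.16 in R 4.3.3 (TMM, filterByExpr minimum count 10, minimum total 15, quasi-likelihood test, two-sided, Benjamini-Hochberg adjustment over 17473 genes). The threshold was an adjusted p of 0.05. DESeq2 1.42.0 and limma 3.58.1 (on voom values, or log2 of FPKM plus 1 or 0.1) were alternatives, as were other size factors and filters, scaling to cardiomyocyte markers, a local regression on gene length (span 0.5) and each heart left out. The fits were tested on simulated counts that held no trend with gene length and no outlying heart. That test therefore does not cover these features of wild type replicate 5. The 10 genes, the gene lists and the comparisons were chosen with earlier results of these data known. Further genes were named where their unadjusted p was under 0.05, at most 8 per list. Also named were the 5 nearest to Cdh2, Wt1 and Tnnt2, and others where said. Older symbols were matched through Ensembl identifiers. Nothing states that hearts came from separate litters, so p-values measure the spread between these hearts. Both the counts and the FPKM values were deposited in duplicate tables, and a table of group means was not used. Reads carried no molecular identifiers, so counts include PCR copies.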

Additional observations from a re-analysis of the deposited data

How the results depend on the processing

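No paired analysis was possible because the groups share only 1 replicate number, 5, and nothing in the labels ties those hearts together. In no setting did any of the 10 genes have an adjusted p under 0.05. Over all genes, edgeR found 0 genes past the threshold (1002 at an unadjusted p under 0.05), with 1 when scaled to cardiomyocyte markers (median of all genes −0.099), 34 without the filter on low counts, 6 with the length correction and 132 in DESeq2. It found 0 to 44 with each heart left out in turn, 44 being without wild type replicate 5.

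Added after seeing the data were fits without wild type replicate 5 in DESeq2 (447 genes, 4 of the 10 genes above 0, 13 further disc genes at an unadjusted p under 0.05), the same with the length correction (41 genes, 6 of 10 and 11 disc genes), and limma-voom with heart quality weights (71 genes and 11 disc genes). With each heart left out, 4 to 10 of the 10 genes were above 0, 0 to 3 had an unadjusted p under 0.05 (0 without mutant replicate 10, 3 without wild type replicate 2), and so did 2 to 10 further disc genes. On log2(FPKM + 1) and log2(FPKM + 0.1), 3 further disc genes did.

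With each heart left out in turn, the log2 fold change ranged from −0.035 to 0.26 for Cdh2, −0.0013 to 0.56 for Dsp, −0.12 to 0.24 for Jup, −0.11 to 0.15 for Ctnna1, −0.10 to 0.33 for Tjp1 and −0.043 to 0.35 for Xirp1. In DESeq2 without wild type replicate 5 these values were −0.039, −0.0046, −0.12, −0.11, −0.11 and −0.047 in the same order. With the length correction and without that heart, Cdh2 had −0.0018, Jup −0.15, Ctnna1 −0.080 and Tjp1 −0.081. With quality weights Jup had −0.058, Ctnna1 −0.065 and Tjp1 −0.027. Scaled to cardiomyocyte markers, Jup had −0.016 and Ctnna1 −0.050, and with the length correction Ctnna1 had −0.011. The other 4 genes stayed above 0 in all settings run. The cause of these changes was not tested.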
